A study of Mus musculus with 12 samples.

Results

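Proteasome subunit genes were examined in mouse liver 4 days after an adenovirus carrying human apolipoprotein F (hApoF) or green fluorescent protein (GFP) was given. Members were the genes whose symbol starts with Psm, a letter from a to g and a digit, leaving out Psmb8, Psmb9, Psmb10 and pseudogenes, on probe sets annotated to exactly 1 gene symbol. The rule found 46 members among 22180 genes, and the brightest probe set, by its average across the 12 arrays, stood for each gene. Psma4 is not among them, because its probe sets are shared with a second gene. The rule reads gene symbols and no measured difference.

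Male C57BL6/J mice, 8 to 10 weeks old, received an Ad5 adenovirus by tail vein injection, and livers were taken after a fast of 6 h. The 6 GFP livers (arrays 1 to 6) received Ad-GFP, the control virus, and the 6 hApoF livers (arrays 7 to 12) received Ad-hApoF, so both groups carried a virus. The labels name no genetic alteration, viral dose or batch, and uninjected livers were not analysed here. They do not say for each array that it came from its own mouse, so the p-values cover only the variation among these arrays, which may be technical. The values are log2 signals per probe set, and all differences below are log2 hApoF minus log2 GFP.

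The proteasome degrades proteins tagged with ubiquitin. Its barrel-shaped core holds the proteolytic sites in beta rings between outer alpha rings. The regulatory particle caps the core: a base of ATPases unfolds the substrate, and a lid removes its ubiquitin. Activator proteins can bind the core in place of the regulatory particle, and dedicated chaperones guide assembly. Nearly every cell needs the complex, and its subunit genes can be raised together by the transcription factor Nfe2l1 when proteasome activity is short.

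Array medians lay between 4.93 and 5.03. Hepatocyte markers averaged 12.09 to 12.31 on every array, and albumin lay between 13.40 and 13.55. Upper quartiles were 6.67 to 6.81 on GFP arrays and 6.67 to 6.73 on hApoF arrays. GFP 4 had the lowest mean level of the cell cycle list among GFP arrays (7.13), and hApoF 12 the lowest among hApoF arrays (5.44). In bulk tissue, fewer cells of a type and less RNA per cell cannot be told apart.

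The proteasome genes stayed within a narrow band between the groups. In the limma fit over all genes, 1 of the 46 members was lower in hApoF livers at an adjusted p under 0.05, 0 were higher and 45 did not pass. This is 2.17% of the members, against a background of 6.91% of all genes (2.11% higher and 4.8% lower). In the same fit 11.59% of the genes above the median level were called, and 41 of the 46 members are among those genes. The member that passed was Psmf1, which encodes a proteasome inhibitor. An unadjusted p under 0.05 was found for 7 members (15.2%), where all genes gave 21.3% and genes above the median level 30.4%.

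Changes of the members ran from -0.27 (Psmd5) to 0.26 (Psmd9), with a median of -0.05. The median over all genes was 0.03, and over the genes above the median level, which include 41 of the 46 members, it was -0.02. In all, 29 members (63.0%) had a change below 0, against 42.3% of all genes and 54.0% of the genes above the median level. The 95% interval of the change lay within 1.5-fold in either direction for 46 of 46 members, against 91.6% of all genes. The widest bounds were -0.47 (Psmd5 and Psmc3ip) and 0.49 (Psmd9). A member that did not pass is therefore not shown to be equal between the groups. These intervals limit how far its mean probe set signal can differ, not its RNA level. Changes of dim probe sets are compressed. The GFP means of Psma5 (4.23), Psmb11 (4.39), Psma8 (4.96) and Psmg4 (5.01) lay within or below the range of the array medians.

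**Figure D1:**
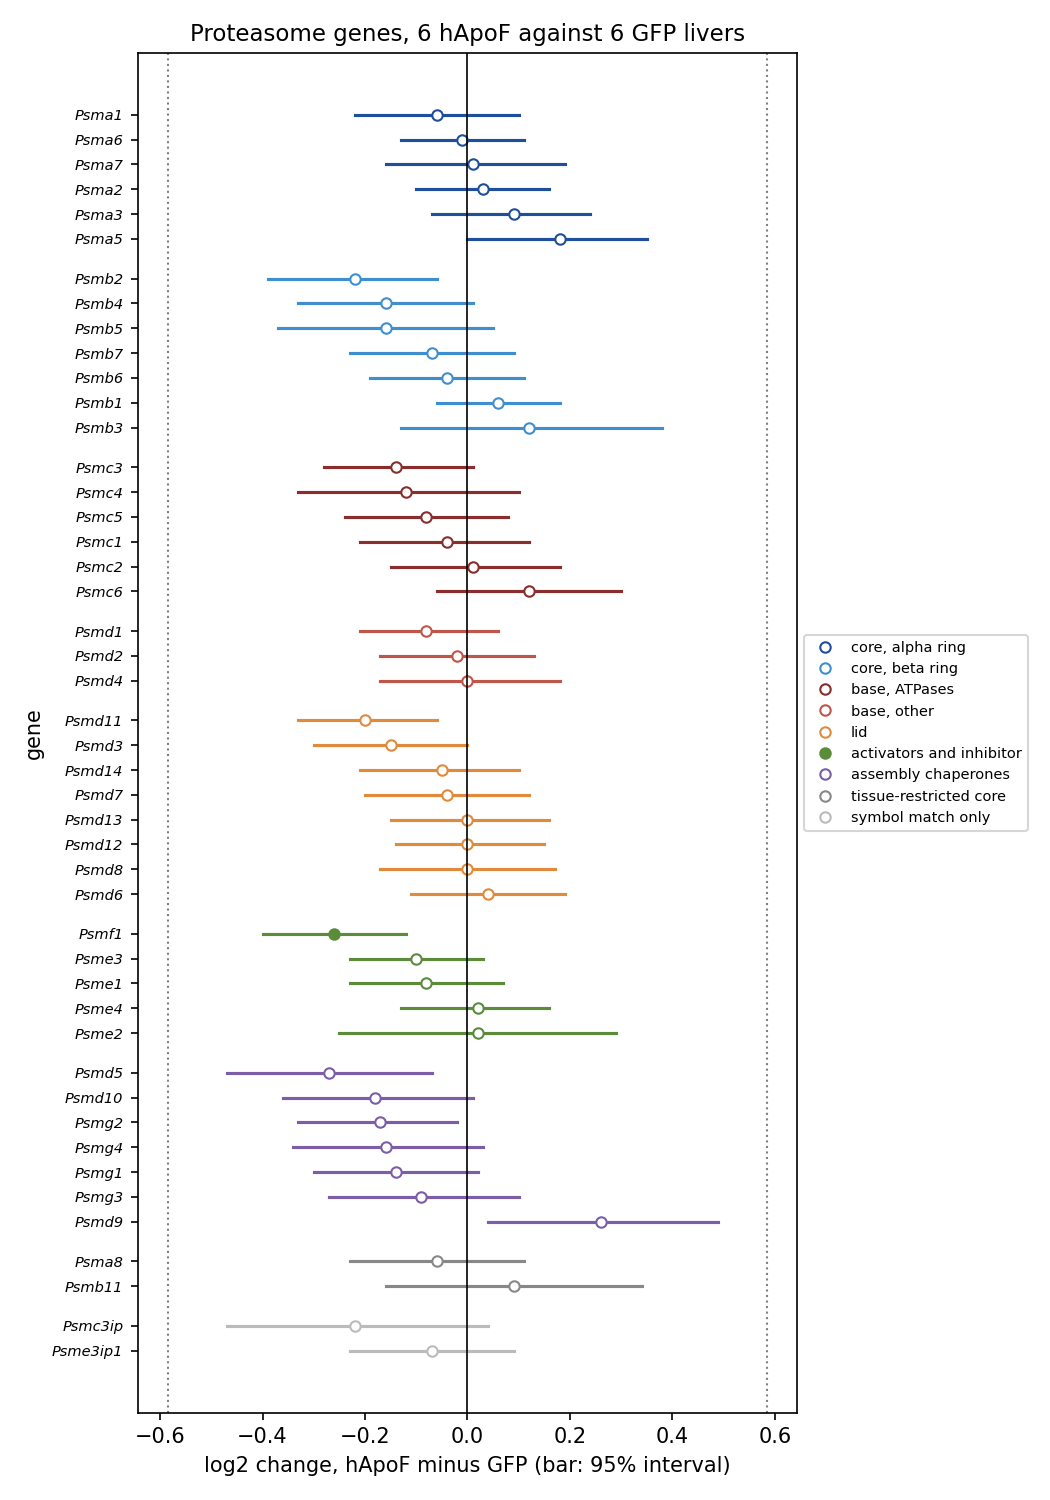
Log2 change (hApoF minus GFP, x axis) of each of the 46 proteasome genes, listed by class on the y axis; bars are the 95% intervals of the limma fit, dotted lines mark 1.5-fold, and a filled point marks an adjusted p under 0.05. All intervals lie between the dotted lines and only the point of Psmf1, at -0.26, is filled.

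**Figure D2:**
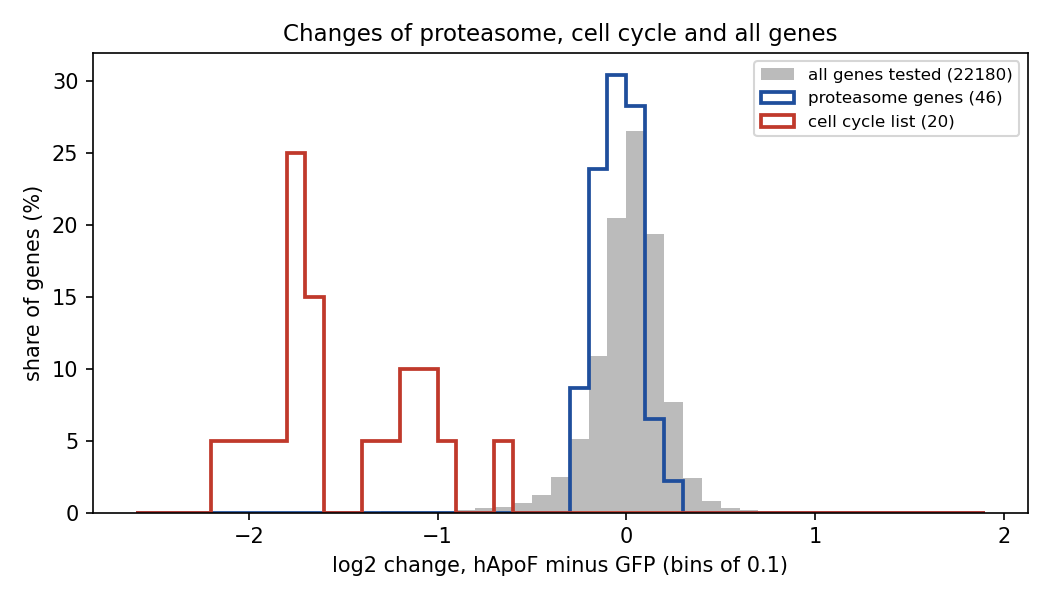
Share of genes (y axis, %) by log2 change, hApoF minus GFP (x axis, bins of 0.1), for all 22180 genes, the 46 proteasome genes and the 20 measured genes of the cell cycle list. The proteasome genes lie between -0.27 and 0.26, and the cell cycle genes between -2.19 and -0.63. The cell cycle list was chosen with earlier results of these data known.

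The alpha ring genes encode the outer rings, which form the gate of the core. Of 6 measured members (Psma1, Psma2, Psma3, Psma5, Psma6 and Psma7) 0 passed the limma test, with a median change of 0.02. Psma5 had the lowest p of them. Its values were 3.93, 4.26 and 4.42 (lowest, median and highest) in GFP livers and 4.30, 4.42 and 4.54 in hApoF livers. The groups overlapped, and 6 of 6 hApoF arrays were above the GFP median. The difference was 0.18 (SE 0.08, limma adjusted p = 0.226). These values lie below the array medians, and the second Psma5 probe set was also low (3.99 ± 0.19 and 4.16 ± 0.62, SD, n = 6 each), so both probe sets lie below the array medians. Psma3 was at 10.38 ± 0.06 and 10.47 ± 0.15, a difference of 0.09. The other alpha genes differed by -0.06 (Psma1) to 0.03 (Psma2).

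The beta ring genes include the catalytic subunits. Of 7 members (Psmb1 to Psmb7) 0 passed the limma test, and the median change was -0.07. Psmb2, a structural beta subunit, had the lowest p. Psmb2 read 7.86, 7.99 and 8.17 (lowest, median, highest) in GFP livers and 7.59, 7.79 and 7.96 in hApoF livers. In 6 of 6 hApoF arrays it was below the GFP median, and in 4 below the lowest GFP array. The difference was -0.22 (SE 0.08, limma adjusted p = 0.105). Psmb4 showed a like pattern, with 6 of 6 hApoF arrays below the GFP median and a difference of -0.16 (limma adjusted p = 0.258). Psmb1 was 9.55 ± 0.03 and 9.61 ± 0.05, and Psmb3 differed by 0.12.

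The catalytic beta subunits are Psmb5 (chymotrypsin-like activity), Psmb6 (caspase-like) and Psmb7 (trypsin-like). Psmb5 ranged from 7.52 to 7.90 in GFP livers, with a median of 7.64, and from 7.19 to 7.71 in hApoF livers, with a median of 7.52. The groups overlapped widely, and hApoF 12 held the lowest value. The difference was -0.16 (95% interval -0.37 to 0.05, limma adjusted p = 0.377). It was -0.09 without hApoF 12, and ran from -0.20 to -0.09 when any 1 array was left out. Psmb7 differed by -0.07 and Psmb6 by -0.04, and without hApoF 12 the values were -0.02 and 0.0018. Over all omissions of 1 array they ran from -0.10 to -0.02 and from -0.07 to 0.0018.

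The base of the regulatory particle consists of ATPases that unfold the substrate and of scaffold and ubiquitin-binding subunits. None of the 6 ATPase genes (Psmc1 to Psmc6) passed the limma test, and 0 had an unadjusted p under 0.05. Psmc3 had the lowest p. It read 8.09, 8.15 and 8.20 (lowest, median, highest) in GFP livers and 7.80, 8.02 and 8.14 in hApoF livers. In 5 of 6 hApoF arrays Psmc3 was below the lowest GFP array, yet hApoF 10 was level with GFP 6. The difference was -0.14 (SE 0.07, limma adjusted p = 0.258). Psmc4 (-0.12), Psmc5 (-0.08), Psmc1 (-0.04), Psmc2 (0.01) and Psmc6 (0.12) had intervals that include 0.

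The other base genes were Psmd1, a large scaffold subunit, Psmd2, which docks ubiquitin shuttle proteins, and Psmd4, a ubiquitin receptor. Their changes were -0.08, -0.02 and 0.00, and none passed. Psmd1 read 9.17, 9.29 and 9.40 (lowest, median, highest) in GFP livers and 9.10, 9.21 and 9.30 in hApoF livers, so the groups overlapped over most of their range (limma adjusted p = 0.532). Psmd4 had the same mean in both groups but an SD of 0.04 in GFP and 0.19 in hApoF livers. Its hApoF values ran from 8.00 (hApoF 12) to 8.54 (hApoF 11), on both sides of the GFP range of 8.21 to 8.32.

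The lid genes number 8 (Psmd3, Psmd6, Psmd7, Psmd8 and Psmd11 to Psmd14), and 0 passed the limma test. Psmd11, a lid subunit that clamps the lid and base onto the core, came nearest. Its values were 9.90, 9.98 and 10.08 (lowest, median, highest) in GFP livers and 9.69, 9.80 and 9.89 in hApoF livers. No hApoF array reached the lowest GFP array. Groups without overlap, in either direction, were seen in 2 of the 46 members (Psmd11 and Psmf1) and in 4.98% of all genes. The same held for 980 of the 11090 genes above the median level. Psmd11 differed by -0.20 (95% interval -0.33 to -0.06, SE 0.06), and its adjusted p was 0.073 by limma. It was called with trend and robust settings (limma adjusted p = 0.027), among brighter genes only (0.025) and after a further quantile normalization (0.0474), with adjusted p over all alternatives between 0.025 and 0.154.

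Psmd3, another lid scaffold subunit, differed by -0.15 (limma adjusted p = 0.251), with 4 of 6 hApoF arrays below the lowest GFP array. Psmd14, the lid's ubiquitin-removing enzyme, read 6.87 ± 0.12 and 6.81 ± 0.09 (SD, n = 6 each), a difference of -0.05. Psmd7, which pairs with Psmd14, differed by -0.04. Psmd6 (0.04), Psmd12 (0.00), Psmd13 (0.00) and Psmd8 (0.00) lay at or near 0, and the 95% interval of Psmd12 was -0.14 to 0.15.

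None of the 4 activator genes passed, and their 95% intervals lay between -0.25 and 0.29. Psme1 and Psme2 encode the subunits of the interferon-inducible activator ring, Psme3 a related nuclear activator and Psme4 a large single-chain activator. Psme3 had the lowest p of the 4, with values of 7.69, 7.76 and 7.85 (lowest, median, highest) in GFP livers and 7.60, 7.65 and 7.79 in hApoF livers. The groups overlapped, and the difference was -0.10 (limma adjusted p = 0.391). Psme1 differed by -0.08, Psme4 by 0.02 and Psme2 by 0.02.

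Psmf1 encodes a protein that inhibits the core in the test tube and also serves as an adaptor for moving proteasomes within cells. It read 7.82, 7.84 and 7.89 (lowest, median, highest) in GFP livers and 7.42, 7.58 and 7.74 in hApoF livers. All 6 hApoF arrays were below all GFP arrays, and the GFP values were tightly grouped (SD 0.03, against 0.11 in hApoF livers). Psmf1 fell by 0.26 on the log2 scale, 1.2-fold (SE 0.07, 95% interval -0.40 to -0.12, limma adjusted p = 0.025). The call was lost without GFP 1 (limma adjusted p = 0.056), hApoF 8 (0.0504) or hApoF 10 (0.0504) and after a further quantile normalization (0.070, change -0.21). Adjusted p over all alternatives lay between 0.0073 and 0.070.

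**Figure D3:**
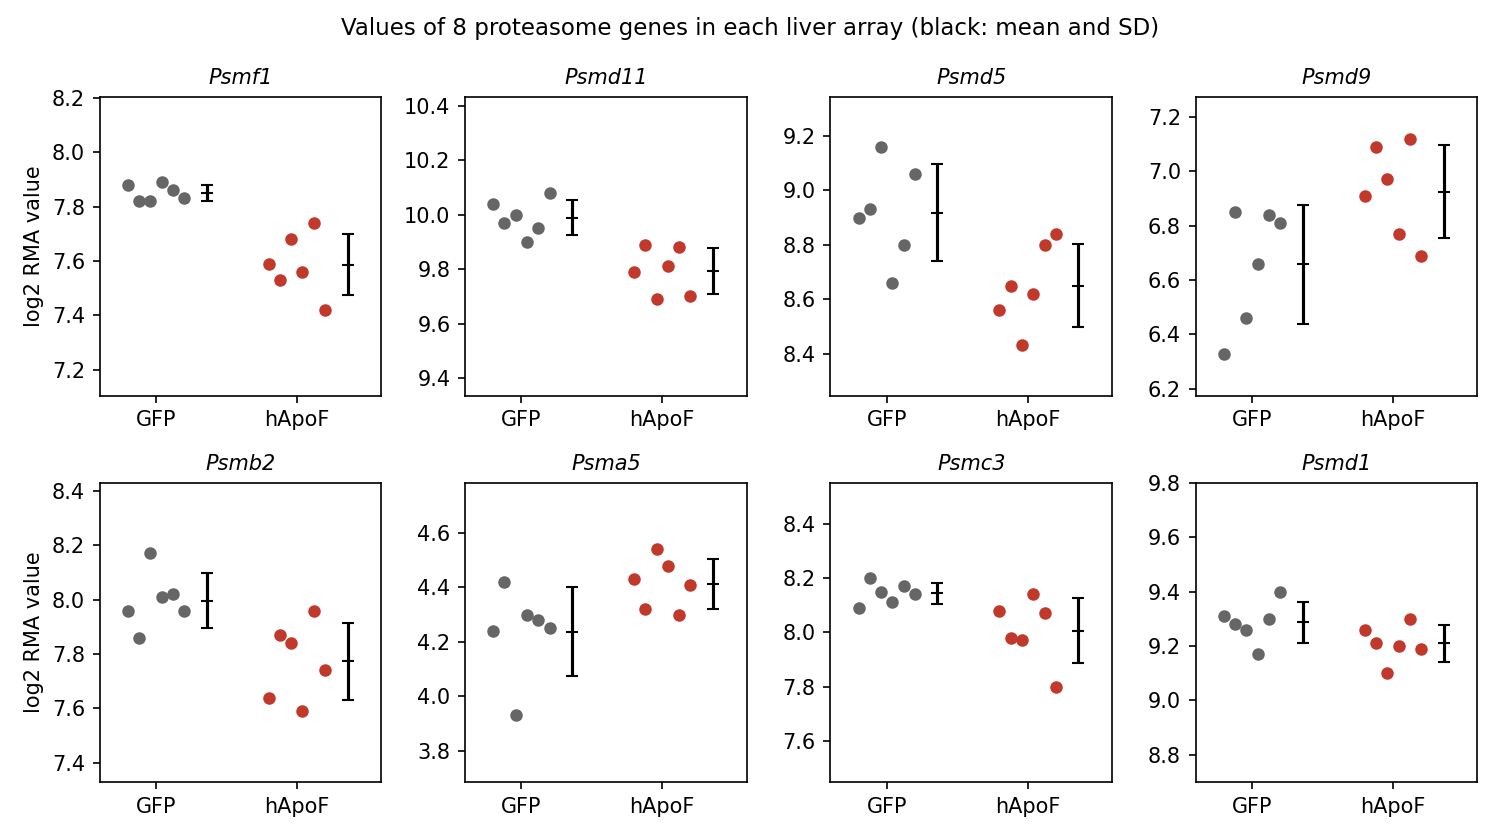
Log2 RMA values (y axis, span of 1.1 in every panel) of 8 proteasome genes in each GFP (grey) and hApoF (red) liver, with the mean and SD in black. The groups are separate for Psmf1 and Psmd11 and overlap for Psmd5, Psmd9, Psmb2, Psma5, Psmc3 and Psmd1.

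Assembly chaperones help to build the particle and leave it afterwards. Psmg1 to Psmg4 act in the assembly of the alpha ring, and Psmd5, Psmd9 and Psmd10 in that of the base. None of the 7 passed the limma test, and 3 (42.9%) had an unadjusted p under 0.05, against 21.3% of all genes. The median change was -0.16, or -0.10 after a further quantile normalization. Changes below 0 were seen in 6 of the 7 (85.7%), against 42.3% of all genes. Among genes above the median level these 2 shares were 30.4% and 54.0%. With only 7 genes in the class, its shares were not tested. Psmd5 read 8.66, 8.92 and 9.16 (lowest, median, highest) in GFP livers and 8.43, 8.64 and 8.84 in hApoF livers. In 6 of 6 hApoF arrays it was below the GFP median, while hApoF 11 and hApoF 12 lay above the lowest GFP array, GFP 4. The difference was -0.27 (SE 0.09, limma adjusted p = 0.104). Psmd5 was called when GFP 4 was left out (-0.32, limma adjusted p = 0.042) and when hApoF 12 was left out as well (-0.36, 0.026). GFP 4 held its lowest GFP value and hApoF 12 its highest hApoF value (8.84). Leaving these arrays out widens the difference by construction, so the 2 calls add no support. The adjusted p of Psmd5 over all alternatives lay between 0.026 and 0.220.

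Psmd9 went the other way. Its values were 6.33, 6.73 and 6.85 (lowest, median, highest) in GFP livers and 6.69, 6.94 and 7.12 in hApoF livers, a difference of 0.26 (SE 0.11, limma adjusted p = 0.163). In 4 of 6 hApoF arrays Psmd9 was above the highest GFP array. Psmg2 (-0.17), Psmd10 (-0.18), Psmg4 (-0.16), Psmg1 (-0.14) and Psmg3 (-0.09) had adjusted p of 0.173 to 0.617 by limma. The second Psmg2 probe set read 2.60 in both groups, below the lower quartile of every array (3.66 to 3.80).

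The remaining 4 members are not constitutive subunits. Psma8, an alpha subunit of testis, read 4.96 ± 0.15 and 4.90 ± 0.10, and Psmb11, the beta subunit of thymic epithelium, 4.39 ± 0.25 and 4.48 ± 0.19 (SD, n = 6 each). The group means of both lie within or below the range of the array medians, and on single arrays Psma8 read up to 5.09. Psmc3ip and Psme3ip1 match the symbol rule but encode no subunit: the first acts in meiotic recombination and the second binds Psme3. They differed by -0.22 (limma adjusted p = 0.322) and -0.07 (0.639).

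Set side by side, the core (13 genes), the regulatory particle (17) and the activators (4) had median changes of -0.01, -0.04 and -0.03. None of these 34 genes passed. As means over the genes of a class, the core stood at 8.14 ± 0.04 in GFP and 8.12 ± 0.06 in hApoF livers. The regulatory particle stood at 8.73 ± 0.05 and 8.68 ± 0.08, and the activators at 8.20 ± 0.06 and 8.17 ± 0.06 (SD, n = 6 each). The differences between group means were no larger than the SD between hApoF arrays in these 3 classes, and the ranges of the groups overlapped in each. The chaperones stood at 6.84 ± 0.11 and 6.73 ± 0.07. Whether classes differ from each other was not tested.

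The spread within the hApoF group was lower when hApoF 12 was left out. Among the 42 constitutive members (core, regulatory, activator, inhibitor and chaperone genes), 28 had a larger SD in hApoF than in GFP arrays, against 56.0% of all genes. Without hApoF 12 the number was 21, against 49.8%. In 19 of the 42 (45.2%) hApoF 12 was the lowest hApoF array, against 23.7% of all genes. The beta ring showed it most: its mean was 7.80 in hApoF 12 and 7.95 to 8.07 in the other hApoF arrays, all 7 of its genes had the larger SD in hApoF, and 1 of 7 had it without that array. In 6 of the 42 hApoF 12 was instead the highest hApoF array, against 19.5% of all genes: Psma6 (8.40), Psmb1 of the beta ring (9.70), Psmc6 (9.64), Psmd7 (9.81), Psme4 (9.84) and Psmd5 (8.84). At the other end, GFP 6 was the highest GFP array in 19 of the 42 (18.2% of all genes) and hApoF 11 the highest hApoF array in 17 (14.6%). GFP 4 was the lowest GFP array in 15 of the 42, against 22.3% of all genes. These array counts were chosen after the values were seen and carry no test. Leaving out an array at the end of its group tends to lower the SD by itself, and no GFP array was left out for this spread.

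**Figure D4:**
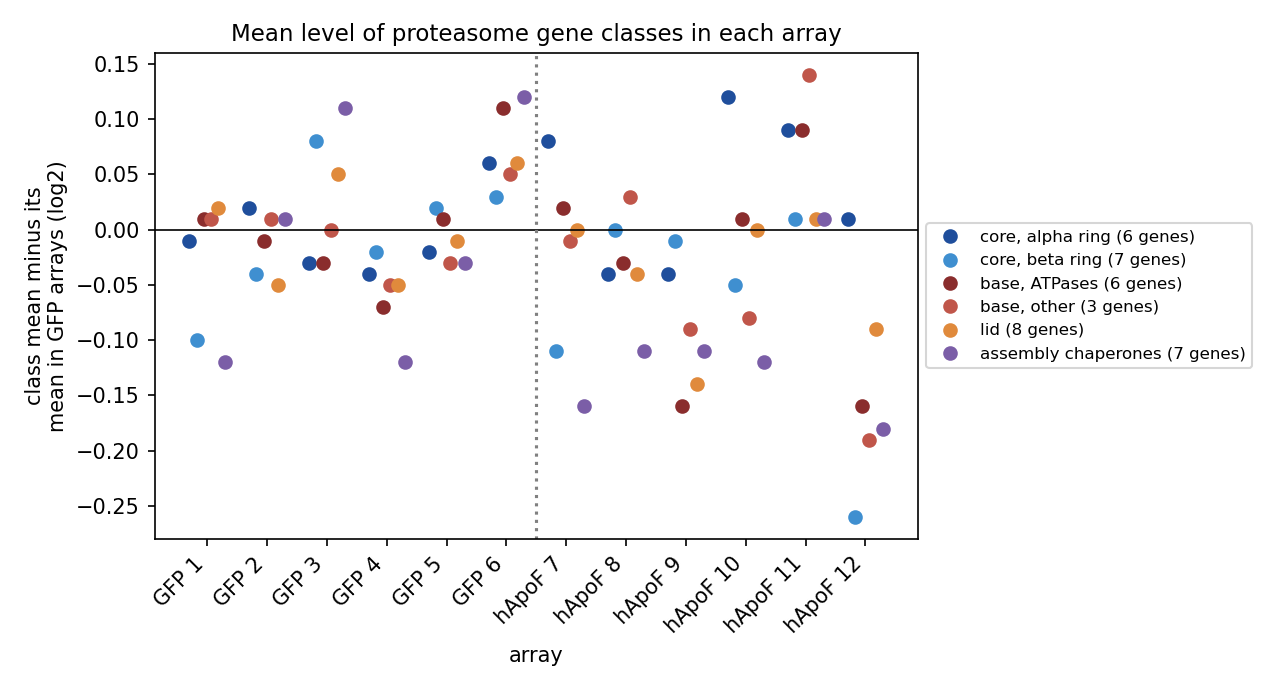
Mean log2 level of 6 classes of proteasome genes in each array (x axis), minus the mean of that class in GFP arrays (y axis). The beta ring in hApoF 12 is the lowest point, while the alpha ring in that array lies near 0.

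The interferon-inducible immunoproteasome subunits, which replace the catalytic beta subunits, did not pass either. Psmb9 differed by -0.35 (95% interval -0.67 to -0.03, limma adjusted p = 0.185). It read 6.50 to 7.15 in GFP and 5.93 to 6.86 in hApoF livers, with 4 hApoF arrays below the lowest GFP array. Psmb8 and Psmb10 differed by -0.06 and -0.05. In the interferon-stimulated list 0 of 16 measured genes passed, against 6.91% of all genes, with a median of -0.09. The lowest p there was that of Tap1, the peptide transporter of antigen presentation, whose groups did not overlap (-0.49, limma adjusted p = 0.051). Tap1 was called without GFP 4 and with centred arrays, array weights, trend and robust settings or brighter genes only, with adjusted p over all alternatives between 0.026 and 0.104.

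Other lists of the ubiquitin system held 1 gene that passed, where 6.91% of all genes did. Of 8 further proteasome subunits and partners (such as the ubiquitin-trimming enzyme Usp14, at 0.08 the one with the lowest p) 0 passed, with a median of 0.02. Of 13 ubiquitin shuttle and p97 cofactor genes 0 passed, with changes from -0.41 to 0.24 and a median of -0.04, and Ubxn4, an anchor of p97 at the endoplasmic reticulum, came nearest (0.24, limma adjusted p = 0.052). Ubxn4 was called without GFP 4 and with trend and robust settings, brighter genes only or array weights, and its adjusted p over all alternatives lay between 0.018 and 0.112. Of 8 ubiquitin and ubiquitin-activation genes 1 was lower, Fau, which encodes a ubiquitin-like protein fused to a ribosomal protein (-0.25, limma adjusted p = 0.032). Its call was lost in 7 of the 12 fits that omitted a single array (GFP 1, 2, 3 or 5, or hApoF 10, 11 or 12), with limma adjusted p up to 0.081. It was also lost with the mean of its probe sets (-0.17, 0.241).

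Among 10 measured genes that control proteasome gene expression, 1 was lower and 1 higher, against 4.8% and 2.11% of all genes. Nfe2l2, the antioxidant response factor Nrf2, read 9.21, 9.43 and 9.69 (lowest, median, highest) in GFP livers and 8.82, 8.89 and 9.16 in hApoF livers, with no overlap. It fell by 0.51 (SE 0.09, limma adjusted p = 0.0030). Maff, a small Maf partner of such factors, rose from 5.21 ± 0.15 to 5.65 ± 0.22 (SD, n = 6 each), a change of 0.44 (limma adjusted p = 0.017). Nfe2l1, the factor that raises proteasome genes when activity is short, read 7.49 in both groups, with a 95% interval of -0.14 to 0.15. The other control genes that did not pass ran from -0.11 (Keap1, which holds Nrf2 for degradation) to 0.22 (Bach1, a repressor at the same element). Of 13 targets of protein-damage stress 2 were lower, against 4.8% of all genes. These were Zfand2a, a stress-induced proteasome-associated protein (-0.62, limma adjusted p = 0.0012), and Hsp90aa1, an inducible chaperone (-0.47, limma adjusted p = 0.0057).

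Both Nfe2l1 and Nfe2l2 are known to bind the antioxidant response element. Its core letters, TGACNNNGC or GCNNNGTCA on the opposite strand, were looked for in the 250 bases before the start of each gene, in RefSeq promoter windows of the build GRCm38.p6. Windows matched 38 of the 46 members by symbol (42 windows). Entries for Psma8, Psmb1, Psmb2, Psmb7, Psmc3, Psmd3, Psmd7 and Psmg2 were missing. The core was present in 5 of the 42 windows (11.9%) and in 10.2% of all 32851 windows. The core with a G directly before it, a subset of these matches, was present in 4 (9.5%) and in 3.5% of all windows. The CCAAT box, on either strand, was present in 15 (35.7%) and in 33.8%. Whether the fall of Nfe2l2 bears on genes with the core was not tested. Among the 38 members with a window, 5 held the core, in these stretches, where capitals mark it.
Psmb5, chr14:54618018-54618058, minus strand: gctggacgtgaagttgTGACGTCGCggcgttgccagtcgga
Psmb6, chr11:70525332-70525356, plus strand: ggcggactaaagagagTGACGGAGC
Psmc6, chr14:45329581-45329621, plus strand: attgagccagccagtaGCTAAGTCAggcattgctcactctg
Psmd9, chr5:123228143-123228183, plus strand: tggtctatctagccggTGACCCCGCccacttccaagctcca
Psmd12, chr11:107479278-107479305, plus strand: tctGCTGTGTCAcatttgcccccctcag
The first base of the core, read along the gene, lies 47, 9, 227, 31 and 247 bases before the gene start in this order. The changes of the same 5 genes were -0.16, -0.04, 0.12, 0.26 and 0.00, and none passed the limma test. A match of letters is a description of the window and shows no binding.

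Values of other gene groups stood beside these results. Here higher and lower mean a limma adjusted p under 0.05, which 2.11% and 4.8% of all genes met. All 20 measured genes of the cell cycle list were lower, with a median of -1.67. This list was chosen with earlier results of these data known, so the count is a description only. Its mean was 7.13 to 7.77 on GFP arrays and 5.44 to 6.44 on hApoF arrays. Hepatocyte markers averaged 12.09 to 12.21 in GFP and 12.21 to 12.31 in hApoF livers, with 1 of 12 higher. The Kupffer cell and macrophage list had 2 of 12 higher (mean 6.81 to 7.90 in GFP, 7.27 to 8.04 in hApoF livers), the endothelial list 2 of 12 (7.91 to 8.42, 8.21 to 8.58) and the stellate and fibroblast list 3 of 12 (6.96 to 7.29, 7.21 to 7.50). Of the neutrophil and monocyte list 2 of 10 were higher (4.80 to 5.01, 4.83 to 5.28). In the bile duct (5 genes), T and NK cell (11) and B cell (7) lists 0 passed, with means of 4.77 to 4.99, 4.73 to 4.98 and 4.76 to 5.03 in GFP and 4.75 to 5.03, 4.81 to 4.99 and 4.90 to 5.26 in hApoF livers. None of these 8 cell type lists had a member called lower, though changes below 0 occurred (down to -0.31 in the bile duct list). The part of cell composition in the proteasome values was not tested.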

How the data were processed

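The deposited table holds log2 expression values for 35145 probe sets on 12 arrays with 0 missing values. Per the submitters' processing notes the authors used oligo and RMA, with versions and settings not given in the sources read here. RMA as a method pulls array distributions together, so a shift shared by most genes would not show, and it compresses changes of dim probe sets. Precision depends on there being 6 arrays a group.

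Gene names came from GEO's platform annotation, parts of which may be outdated: 23521 probe sets had 1 symbol, 1814 several genes and 9810 none. The brightest single-symbol probe set stood for each of 22180 genes, with no filter on dim genes. All 46 members matched RefSeq by gene number.

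The groups were compared with limma 3.58.1 (lmFit and eBayes, two-sided) in R 4.3.3, with Benjamini-Hochberg adjustment over all genes and a threshold of 0.05. The fit was tested on simulated data. Tables were made with Python 3.11.15 and pandas 2.3.3. Alternatives were array centring, quantile normalization, trend and robust settings, brighter genes, mean of probe sets, array weights, omission of each array, and omission of GFP 4 and hApoF 12. A fit of all probe sets, and the spread without hApoF 12, were added after the values were seen.

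The members and gene lists were chosen with earlier results of these data known. All members may be named. The lowest, median and highest values are given for the member that passed and for the lowest p of each class of constitutive members. From each related list up to 4 that passed are named, or the lowest p, and the 3 immunoproteasome subunits. Psmb4, Psmb5, Psmd4, Psmd9, Nfe2l1, Keap1, Bach1 and the array counts were singled out after their values were seen.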

Additional observations from a re-analysis of the deposited data

Results flagged for a closer look

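An array stood apart from the other 5 of its group, by a gap wider than Dixon's critical value of 0.625 of the group's range, in 4 of 92 checks of members (46 genes in 2 groups). Chance alone flags about 1 in 20 groups. Psma5 read 3.93 in GFP 3, against 4.24 to 4.42 in the other GFP arrays. Psma1 read 8.66 in GFP 4, against 8.82 to 8.90. Psmd13 read 7.85 in GFP 2, against 8.04 to 8.12. Psmd7 read 9.81 in hApoF 12, against 9.45 to 9.57 in the other hApoF arrays.

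Among the related genes, Maff read 4.92 in GFP 2 (others 5.19 to 5.35) and Aspscr1, a p97 cofactor, 8.03 in GFP 6 (others 8.22 to 8.32). Ubxn4 read 9.77 in hApoF 11 (others 9.42 to 9.53), the spindle checkpoint target Cdc20 5.75 in hApoF 12 (others 6.33 to 6.65) and the hepatocyte marker Ttr 13.05 in hApoF 7 (others 13.12 to 13.15).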

How the results depend on the processing

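No paired analysis was made, because the labels name no pairing between GFP and hApoF arrays. The number of proteasome genes changed, all lower, was 1, and 0 to 2 when 1 array was left out. It was 0 without GFP 1, hApoF 8 or hApoF 10, where 5.33%, 6.01% and 5.58% of all genes changed. Without GFP 4 it was 2, where 8.96% of all genes changed. With trend and robust settings it was 2 (8.77% of all genes), and without GFP 4 and hApoF 12 also 2 (9.24%). Among brighter genes it was 3 of the 41 members tested, where 19.0% of all genes tested changed. In none of the 19 alternatives was a member called higher. Members called in any fit were Psmf1, Psmd11, Psmd5 and Psmb2 (limma adjusted p = 0.046 among brighter genes, up to 0.220 over the alternatives). The median change of all members ran from -0.09 to -0.03, of the regulatory genes from -0.07 to -0.01, of the core from -0.04 to 0.02, of the activators from -0.06 to -0.01 and of the assembly chaperones from -0.20 to -0.10. With arrays centred, the median over all genes moved from 0.03 to about 0 and 78.7% of the changed genes were lower, against 69.4%; after a further quantile normalization it was 60.9%. The number of genes changed overall was 1533 (469 higher, 1064 lower), and 1015 to 1988 (254 to 653 higher, 748 to 1335 lower) when 1 array was left out, and among brighter genes 19.0% were changed. The lowest totals were 1019, 1015 and 1021, with GFP 2, 3 or 6 omitted in this order. The number higher was 307, 254, 267 and 267 with GFP 1, 2, 3 or 6 omitted.

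The sign changed in some alternative for 13 members near 0, past the threshold in 0 fits. With arrays centred it changed for Psma2 (-0.0014), Psma7 (-0.02), Psmc2 (-0.02), Psmd4 (-0.03), Psmd8 (-0.03), Psmd12 (-0.03), Psmd13 (-0.03), Psme2 (-0.01), Psme4 (-0.01) and Nfe2l1 (-0.02). After quantile normalization it changed for Psma6 (0.02), Psmd14 (0.03), Psmd8 (-0.01) and Psmb8 (0.01), with the mean of probe sets for Psmc2 (-0.02) and Vcp (0.01), and with array weights for Psme4 (-0.0015). Without GFP 4 and hApoF 12 it changed for Psmb6 (0.01), Psmd2 (0.01), Psmd12 (-0.01), Psme4 (-0.03), Psmb8 (0.01) and Nfe2l1 (-0.0002). Where leaving out 1 array turned the sign, the change of Psma2 ran from -0.0001 to 0.05, Psma7 -0.02 to 0.06, Psma6 -0.02 to 0.01, Psmb6 -0.07 to 0.0018, Psmc2 -0.02 to 0.05, Psmd2 -0.05 to 0.02, Psmd4 -0.05 to 0.06, Psmd12 -0.02 to 0.04, Psmd13 -0.03 to 0.04, Psmd8 -0.05 to 0.05, Psme4 -0.01 to 0.05, Psme2 -0.05 to 0.09, Psmb8 -0.12 to 0.0031, Psmb10 -0.10 to 0.03 and Nfe2l1 -0.03 to 0.03. The cause of these moves was not tested.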

Other observations

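Psma4, an alpha ring gene whose probe sets are also annotated to AY074887, has no place among the members. Its brighter probe set read 9.36 ± 0.08 in GFP and 9.30 ± 0.11 in hApoF livers (SD, n = 6 each), a difference of -0.06 in a limma fit of all 35145 probe sets (95% interval -0.21 to 0.09, adjusted p = 0.730). Second probe sets of Psma5, Psmc2 and Psmg2 differed by 0.17, -0.05 and -0.00 in that fit. A probe set shared by Psme2 and 2 other genes differed by 0.04, and one shared by Psmd1 and Armc9 by 0.03.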
